A study of Mus musculus with 40 samples.

Results

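The step from FrB to FrC in wild-type (WT) marrow was examined in 10 of the 40 RNA libraries of the series, the 5 FrC and the 5 FrB libraries whose titles carry WT. The fractions are those of the Hardy scheme, which divides bone marrow B-lineage cells by surface proteins. Mice 1, 2, 3, 6 and 7 each gave 1 FrC and 1 FrB library of 100 sorted cells, so the libraries are paired by animal. All 5 were chimeras, lethally irradiated CD45.1 hosts that had carried marrow of WT donors for 8 weeks, and only donor cells (CD45.2+ CD45.1-) were sorted. The labels used here state no age, strain or sex of the mice. FrB was sorted as B220+ CD43+ CD24+ BP1- and named pro-B by the labels, with no IgM or IgD gate named, while no FrC gate appears in the labels used here. The FrD and FrE libraries of the same mice enter as levels and in alternative fits, and the libraries of mutant mice were not used. Values per library follow the order of mice 1, 2, 3, 6 and 7 throughout.

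In the bone marrow, pro-B cells rearrange the immunoglobulin heavy chain locus with the recombinase RAG1 and RAG2. Cells with a productive heavy chain display it with the surrogate light chain (λ5 and VpreB) and the signalling chains CD79A and CD79B as the pre-B cell receptor (pre-BCR). Signals from that receptor, together with interleukin 7 (IL-7), drive a burst of division in large pre-B cells before the light chain locus is rearranged in small resting cells. In the Hardy scheme FrC lies between pro-B cells and these small pre-B cells and is distinguished from FrB by BP-1, the aminopeptidase encoded by Enpep.

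Each library held between 12514009 and 16892841 endogenous counts. Levels are given as CPM, endogenous counts relative to the library total after TMM scaling, and were compared over samples only. The first principal component held 28.7% of the variance and placed the 5 FrC libraries at 27.3 to 69.6 and the 5 FrB libraries at -86.8 to -27.1. Endogenous counts over spike-in (ERCC) counts, as a log2 ratio, averaged 10.6 ± 0.89 in FrC and 10.001 ± 0.87 in FrB (SD, n = 5 each), and was higher in FrC in 5 of 5 mice by 0.64 ± 0.25. The ratio also differed between mice, at 11.1 to 11.6 in FrC and 10.6 to 10.8 in FrB of mice 1, 2 and 3, against 9.68 and 9.71 in FrC and 9.02 and 9.09 in FrB of mice 6 and 7. FrC libraries held fewer detected genes, 11568 ± 94.0 against 11831 ± 135 in FrB, and the 50 highest genes took 13.8% ± 0.36 of the counts in FrC and 17.7% ± 2.1 in FrB, both lower in FrC in 5 of 5 mice. Each of these 3 measures gave an exact paired permutation p of 0.062, two-sided, the smallest that 5 pairs allow, and the same after adjustment over the 3. In sorted bulk samples, fewer cells of a type and less RNA per cell cannot be told apart.

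Of 10868 genes tested, 182 rose in FrC relative to FrB and 449 fell, at an edgeR quasi-likelihood p adjusted by Benjamini-Hochberg under 0.05. These are 1.67% and 4.13% of the genes tested, and 5.81% in all. The counts called in each gene list below are to be set against these shares. The fit did not pair the libraries by mouse. With mouse as a term of the fit (a block), 213 genes rose and 482 fell, and 539 of the 631 calls were kept. The genes that fell moved further: 320 of the 449 (71.3%) changed by more than 2-fold, against 67 of the 182 that rose (36.8%), and 70 fell by more than 8-fold while 3 rose by as much. The median log2 fold change was 0.89 among genes that rose, -1.38 among genes that fell and 0.00 over all genes tested. The libraries of the fractions did not overlap for 132 of the genes that rose and 345 of those that fell, against 799 of all genes tested (7.35%). The number called differed with the libraries in the fit, which also set the genes tested and the scaling. Why it differed was not tested. When the FrD and FrE libraries of the same mice joined the fit, no gene was called higher and 19 were called lower, with 576 genes at an unadjusted p under 0.05. Without 2 low-complexity libraries of FrD and FrE that fit called 13 higher and 161 lower, an alternative chosen after seeing the data. Leaving out 1 library left 88 to 197 genes called higher and 313 to 536 called lower, and each of the 631 called genes kept its direction in these fits.

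**Figure D1:**
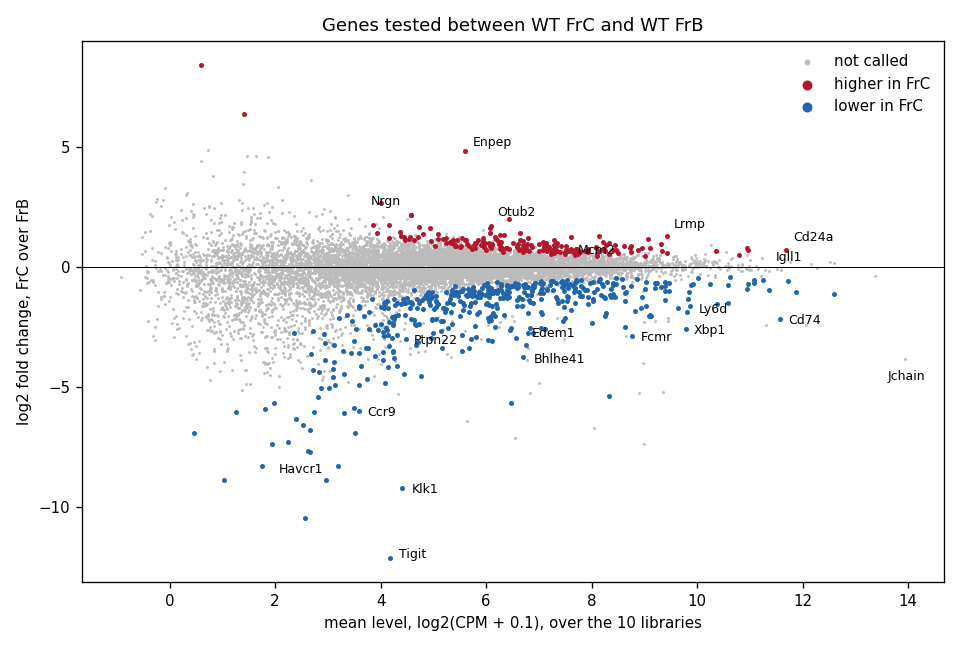
Each point is 1 of 10868 genes, with its mean level over the 10 libraries as log2(CPM + 0.1) on the x axis and its fitted log2 fold change of FrC over FrB on the y axis. Red points are the 182 genes called higher in FrC, blue points the 449 called lower and grey points the rest. The blue points reach far lower than the red points reach high, down to Tigit, which had no count in FrC.

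The genes for the sorted surface proteins were examined first, as a check of the labels. Enpep, at chr3:129269175-129332720 on mm10, had 82.2, 95.1, 73.2, 152 and 63.1 CPM in the FrC libraries, against 7.73, 0, 5.77, 1.93 and 1.098 CPM in the FrB libraries. Every FrC library was more than 8-fold above the highest FrB library, a log2 fold change of 4.83 ± 0.87 (SE, edgeR adjusted p = 0.00969). Since BP-1 was used to gate FrB, this difference checks the sort and is not a finding. Cd24a, which encodes the heat-stable antigen CD24, was at 4147, 3907, 4118, 4091 and 4314 CPM in FrC, against 2298, 2456, 2788, 2383 and 2428 CPM in FrB. The fractions did not overlap for this gene, also a gate of FrB, and the log2 fold change was 0.74 ± 0.10 (edgeR adjusted p = 4.80e-04). Spn, which encodes CD43, had 29.2, 31.4, 31.7, 45.2 and 48.4 CPM in FrC and 33.8, 18.04, 26.1, 22.8 and 61.9 CPM in FrB. Its ranges overlapped and it was not called (adjusted p = 0.825). Ptprc, which encodes CD45 and its B220 isoform, had 205, 223, 188, 251 and 267 CPM in FrC, against 283, 276, 280.2, 525 and 292 CPM in FrB. Its FrC values all lay below the FrB values, but the difference of -0.55 ± 0.19 was not called (adjusted p = 0.102). In all, 2 of 7 tested stage genes were called, both higher in FrC, while DESeq2 called 3 higher and 2 lower.

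**Figure D2:**
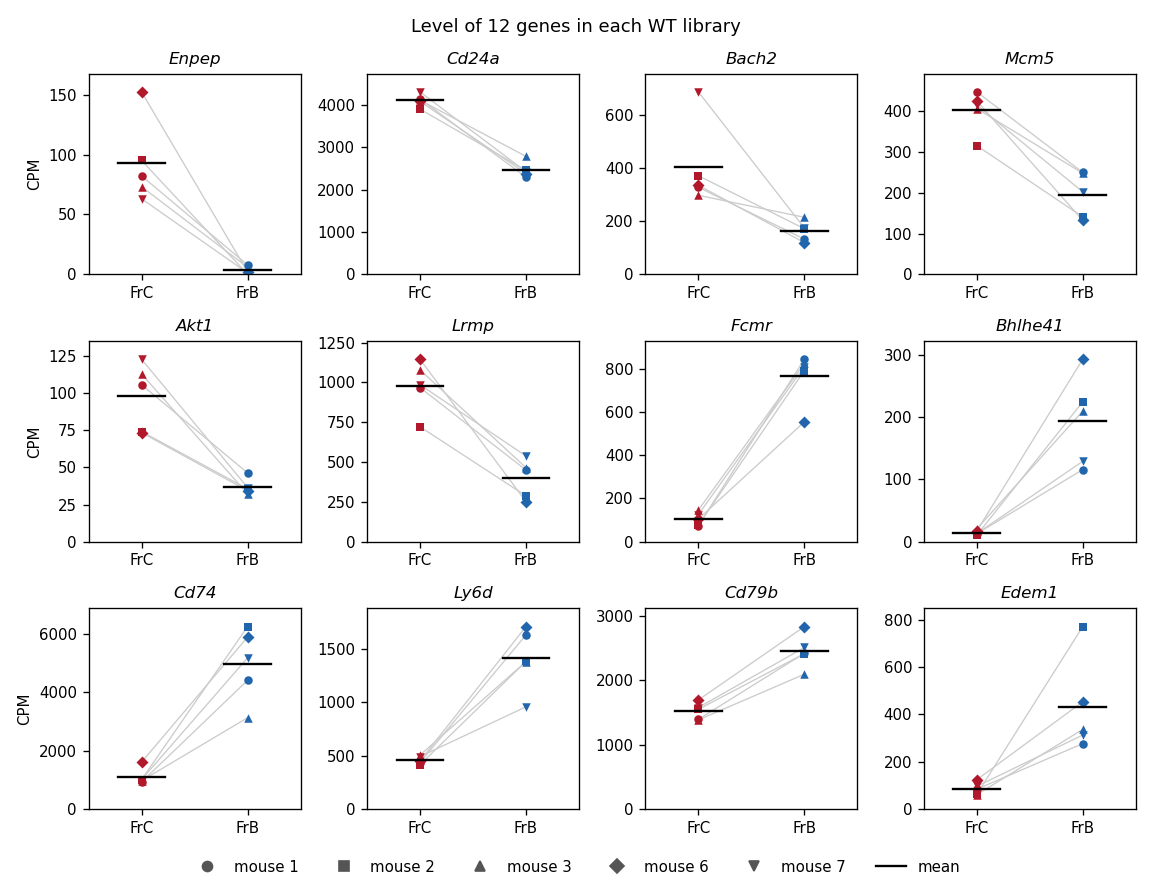
The level of 12 genes in CPM (y axis, from 0) is shown for the FrC (left, red) and FrB (right, blue) library of each of 5 mice, with 1 symbol per mouse, grey lines joining the libraries of a mouse and black bars for the mean. For each gene shown the FrC and FrB libraries do not overlap: the 6 genes from Enpep to Lrmp are higher in FrC and the 6 from Fcmr to Edem1 are lower.

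Among genes with at least 10 CPM, the 12 of lowest p that rose in FrC had different functions. They were chosen by p and not by size of change, which was larger for Enpep. Otub2, a deubiquitinase, had 88.2, 102, 87.1, 140.4 and 106 CPM in FrC, against 41.2, 28.3, 32.5, 27.1 and 28.4 CPM in FrB, a log2 fold change of 1.73 ± 0.20 (edgeR adjusted p = 1.37e-04). Akt1, the kinase that relays phosphoinositide 3-kinase signals, had 106, 74.2, 113, 73.5 and 123 CPM in FrC, against 46.3, 35.5, 32.2, 34.3 and 36.4 CPM in FrB, a change of 1.41 ± 0.21 (adjusted p = 6.14e-04). Ubash3a, a regulator of antigen receptor signalling known from T cells, had 95.9, 77.6, 119, 116 and 101 CPM in FrC, against 46.7, 13.7, 37.8, 29.8 and 36.9 CPM in FrB. It changed by 1.63 ± 0.27 (adjusted p = 0.00165), and its lowest FrC library lay above its highest FrB library, as for Otub2 and Akt1. Lrmp, a lymphoid protein of the endoplasmic reticulum membrane, averaged 979.6 ± 161 CPM in FrC and 398 ± 123 CPM in FrB (SD, n = 5 each). Tmprss3, a transmembrane serine protease, averaged 139 ± 14.5 CPM in FrC and 34.4 ± 18.9 CPM in FrB. Nrgn, which encodes the calmodulin-binding protein neurogranin, averaged 38.8 ± 12.3 CPM in FrC and 8.59 ± 3.69 CPM in FrB, and Myl4, a myosin light chain, averaged 743 ± 98.8 CPM in FrC and 334 ± 95.1 CPM in FrB. Galk1, the galactokinase, averaged 110.5 ± 26.4 CPM in FrC and 43.6 ± 6.57 CPM in FrB. The log2 fold changes of these 5 genes were 1.30 ± 0.20, 2.01 ± 0.31, 2.17 ± 0.35, 1.15 ± 0.18 and 1.34 ± 0.20, with adjusted p-values of 0.000755 to 0.00134 and no overlap between the fractions. Cd24a of this group is given above, and Nolc1, Mcm2 and Bach2 are described with their pathways below.

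The 12 genes of lowest p that fell were chosen in the same way, and genes outside them, such as Ccr9 and Siglech, fell by more than several of them. Fcmr, the Fc receptor for IgM at chr1:130865669-130880791, had 73.8, 75.5, 146, 104 and 125 CPM in FrC, against 844, 792, 825, 554 and 810.1 CPM in FrB. Its level was 7.29-fold lower in FrC (-2.87 ± 0.21 on the log2 scale, edgeR adjusted p = 1.95e-06), with no overlap although FrB of mouse 6 was below the other FrB libraries. Bhlhe41, a transcriptional repressor with a known role in B-1 cells, had 12.5, 10.2, 20.3, 16.9 and 12.9 CPM in FrC, against 116, 224, 209, 292 and 129 CPM in FrB, a change of -3.73 ± 0.28 (adjusted p = 2.32e-06). Tigit, an inhibitory receptor known from T and NK cells, had no count in any FrC library, against 21.97, 81.3, 23.4, 24.6 and 29.7 CPM in FrB, at least 931-fold lower with the FrC libraries together set to a floor of 3 counts. Havcr1, which encodes TIM-1, had 0.114, 0, 0, 0.130 and 0 CPM in FrC, against 16.9, 18.8, 25.5, 20.9 and 8.42 CPM in FrB. Chst11, a chondroitin sulfotransferase, had 0, 0, 0, 0 and 0.121 CPM in FrC, against 10.3, 21.0, 22.2, 12.6 and 10.5 CPM in FrB. Each of these 3 genes was thus at or near 0 in all 5 FrC libraries and above 8 CPM in all 5 FrB libraries (adjusted p = 1.99e-05, 5.69e-05 and 7.24e-05). Cybb, the catalytic subunit of the phagocyte NADPH oxidase, averaged 29.3 ± 11.3 CPM in FrC and 194 ± 47.2 CPM in FrB, a change of -2.73 ± 0.27 (adjusted p = 3.40e-05). Ly86, the partner of the Toll-like receptor homologue RP105, averaged 86.1 ± 9.47 CPM in FrC and 242 ± 46.8 CPM in FrB, a change of -1.49 ± 0.16 (adjusted p = 7.24e-05). Gm8369, a predicted gene, averaged 8.87 ± 4.97 CPM in FrC and 92.9 ± 29.7 CPM in FrB, a change of -3.39 ± 0.37 (adjusted p = 7.24e-05). Klk1, Cd74, Ly6d and H2-DMb2 also belong to this group and are described with the lists that hold them.

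Of the 6 tested genes of the pre-BCR complex, Cd79a and Cd79b fell and none rose, where 4.13% and 1.67% of all genes tested did. Cd79a had 2501, 2953, 2656, 2913 and 2428 CPM in FrC, against 4322, 3747, 3519, 4325 and 4160.0 CPM in FrB, a log2 fold change of -0.58 ± 0.11 (edgeR adjusted p = 0.00528). Cd79b had 1390.3, 1546, 1382, 1691 and 1574 CPM in FrC, against 2417, 2410.1, 2091, 2831 and 2506 CPM in FrB, a change of -0.69 ± 0.12 (adjusted p = 0.00194). For both chains the highest FrC library was below the lowest FrB library. Scaled to spike-in totals, which moved the median of all genes to 0.75, the 2 values were 0.20 and 0.050, still below that median. Igll1, which encodes λ5, had 2236, 3069, 2348, 2728 and 2053 CPM in FrC, against 2916, 2539, 2487, 2883 and 3053 CPM in FrB (-0.16 ± 0.13, adjusted p = 0.567). Vpreb1 had 911, 1299, 958, 1427 and 1002 CPM in FrC, against 1540.0, 1135, 1136, 1789 and 1762 CPM in FrB (-0.40 ± 0.17, adjusted p = 0.202), and its near-identical copy Vpreb2, with which it can share reads, changed by -0.36 ± 0.20 (adjusted p = 0.352). Vpreb3, a chaperone-like member of the family, was at 1906 ± 311 CPM in FrC and 1806 ± 415 CPM in FrB. The surrogate light chain genes overlapped between the fractions and were not called. Immunoglobulin heavy chain genes are not analysed here.

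Of 29 tested genes of pre-BCR and B cell receptor signalling, 3 rose and 5 fell, with a median of -0.02. The shares over all genes tested were 1.67% and 4.13%. Among those that rose, Blk, a SRC family kinase of B cells, had 176, 143, 213, 208 and 203 CPM in FrC, against 79.8, 71.3, 124, 70.9 and 123 CPM in FrB, a change of 1.01 ± 0.20 (edgeR adjusted p = 0.0059). Among those that fell, Ptpn22, a phosphatase that restrains antigen receptor signals, had 11.1, 7.76, 6.16, 11.3 and 21.6 CPM in FrC, against 67.9, 114, 37.6, 136 and 109.6 CPM in FrB, a change of -3.004 ± 0.38 (adjusted p = 2.44e-04). Nfatc1, a calcium-regulated transcription factor, had 46.1, 47.1, 46.7, 49.9 and 46.5 CPM in FrC, against 91.5, 126, 95.8, 113 and 77.5 CPM in FrB, a change of -1.09 ± 0.18 (adjusted p = 0.00144). Neither Blk, Ptpn22 nor Nfatc1 overlapped between the fractions. Cd81, a tetraspanin of the B cell surface, changed by -0.66 ± 0.14 (adjusted p = 0.00969), and by 0.077 when scaled to spike-in totals. Blnk, the adaptor downstream of SYK, averaged 696 ± 193 CPM in FrC and 1182 ± 145 CPM in FrB, a change of -0.76 ± 0.17 (adjusted p = 0.0126), although FrC of mouse 6 lay within the FrB range. With 1 mouse left out, the Blnk call was lost in 4 of 5 fits and the Cd81 call in 2 of 5. The inhibitory receptor genes Cd22 and Cd72 rose by 0.88 and 0.74, and the adaptor gene Bank1 fell by 1.64, but each of these 3 calls was lost in 5 or more of the 10 fits that left out 1 library (adjusted p up to 0.0966).

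The recombination genes Rag1, Rag2 and Dntt did not pass the edgeR test, and all 3 had lower mean levels in FrC. DESeq2 called 2 of the 3 lower. Rag1 had 12.4, 31.7, 11.9, 24.8 and 43.0 CPM in FrC, against 50.2, 70.3, 37.6, 35.5 and 26.7 CPM in FrB (-0.83 ± 0.37, edgeR adjusted p = 0.219). Rag2 had 37.2, 111, 70.5, 165 and 99.8 CPM in FrC, against 158, 221, 144, 220.4 and 184 CPM in FrB (-0.94 ± 0.29, adjusted p = 0.0674). Rag2 was lower in FrC in 5 of 5 mice, with overlap through FrC of mouse 6. With mouse as a block, Rag2 changed by -1.07 and was called (adjusted p = 0.0155). Dntt, the terminal transferase that adds bases at heavy chain joints, had 32.6, 119, 93.1, 687 and 278 CPM in FrC, against 1292, 1009, 467, 1145 and 1829.8 CPM in FrB. It too was lower in 5 of 5 mice, by -2.25 ± 0.80 (adjusted p = 0.161), with FrC of mice 6 and 7 highest among the FrC libraries. Without FrC of mouse 6, Rag2 and Dntt were called lower (adjusted p = 0.0128 and 0.0303). None of 15 end joining genes was called by edgeR, with 1 at an unadjusted p under 0.05 and 1 called by DESeq2. Xrcc4, the partner of DNA ligase IV, changed by -1.105 ± 0.32 (adjusted p = 0.051), and by -1.10 with mouse as a block (adjusted p = 0.0493). It was also called lower without FrB of mouse 1 or FrC of mouse 6 (adjusted p down to 0.0386), while Lig4 itself changed by 0.55 ± 0.27 (adjusted p = 0.28).

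Of 16 tested genes of the IL-7 receptor and its STAT5 pathway, 5 fell and 1 rose, where 4.13% and 1.67% of all genes tested did. The gene that rose was Ccnd2, whose call was lost in 6 of 10 fits without 1 library. Il7r, the receptor's specific chain, had 283, 284, 202, 337 and 405 CPM in FrC, against 211, 188, 221, 221 and 219 CPM in FrB, and was not called (0.51 ± 0.17, edgeR adjusted p = 0.0833), but was called without FrC of mouse 3 (adjusted p = 0.0341). Il2rg, the common γ chain that pairs with it, had 137, 161, 146, 165 and 88.1 CPM in FrC, against 355, 264, 251.7, 278 and 207 CPM in FrB, a change of -0.96 ± 0.19 (adjusted p = 0.00546). The FrC values of Il2rg lay below every FrB value, while those of Il7r overlapped through mouse 3. The survival kinase Pim1 averaged 24.2 ± 7.87 CPM in FrC and 71.6 ± 13.1 CPM in FrB, and its relative Pim2 averaged 34.0 ± 14.6 CPM in FrC and 104 ± 31.3 CPM in FrB. Bcl2, the anti-apoptotic gene, had 11.6, 12.3, 11.2, 11.2 and 13.5 CPM in FrC, against 15.5, 43.4, 23.1, 62.1 and 52.96 CPM in FrB. FrC libraries were nearly equal to each other for Bcl2 and FrB libraries were spread. Il2ra, the IL-2 receptor chain CD25 that marks later pre-B cells, had 17.95, 17.3, 19.6, 11.2 and 11.5 CPM in FrC, against 21.4, 14.8, 17.7, 0.644 and 5.67 CPM in FrB, and was not called (adjusted p = 0.823). The changes of Pim1, Pim2 and Bcl2 were -1.56 ± 0.25, -1.61 ± 0.30 and -1.72 ± 0.36 (adjusted p = 0.00144, 0.00411 and 0.00852). Mcl1, another anti-apoptotic gene, changed by -0.75 ± 0.18 (adjusted p = 0.0211), a call lost without FrC of mouse 1 or FrC of mouse 3 (adjusted p up to 0.062). Of 28 tested genes of p53 signalling and apoptosis, Bcl2, Mcl1 and the death receptor gene Fas fell and none rose. Fas had 0.798, 0, 1.61, 8.43 and 0.908 CPM in FrC, against 14.7, 22.9, 12.6, 34.5 and 16.0 CPM in FrB, and its call (adjusted p = 0.0493) was lost in 8 of 10 fits that left out 1 library.

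Of 14 tested transcription factor genes of early B cells, Ikzf1 alone was called (2 were with mouse as a block), at 437 ± 55.8 CPM in FrC and 264 ± 56.8 CPM in FrB (0.72 ± 0.16, edgeR adjusted p = 0.0127). It encodes Ikaros, which limits pre-B cell growth. For Ikzf1, FrC of mouse 6 (350 CPM) lay below FrB of mouse 3 (356 CPM), and the call was lost in 3 of 5 fits that left out 1 mouse. Ebf1 had 264, 259.8, 245, 423 and 406 CPM in FrC, against 286, 210.5, 258, 307 and 383 CPM in FrB (0.15 ± 0.19, adjusted p = 0.77). Pax5 had 83.5, 87.2, 147, 155 and 304 CPM in FrC, against 66.2, 66.8, 64.5, 135 and 104 CPM in FrB, higher in FrC in 5 of 5 mice but not called (0.83 ± 0.33, adjusted p = 0.163). Of 24 tested transcription factor genes of pre-B cells, 2 rose and 4 fell, where 1.67% and 4.13% of all genes tested did. Bach2, a repressor active at the pre-BCR checkpoint, had 327, 371, 297, 335 and 686 CPM in FrC, against 132, 171, 214, 119 and 174 CPM in FrB, a change of 1.31 ± 0.23 (adjusted p = 0.0024). FrC of mouse 7 was highest, and all FrC libraries lay above all FrB libraries. Irf4, which acts with IRF8 in pre-B cells, changed by 0.70 ± 0.19 (adjusted p = 0.0392), a call lost in 7 of 10 fits without 1 library (adjusted p up to 0.114). Klf3, of the Krüppel-like family, changed by -1.51 ± 0.34 (adjusted p = 0.0152), a call lost in 3 of 5 fits that left out 1 mouse. Id2 and Id3, inhibitors of E proteins, changed by -1.47 ± 0.36 and -0.51 ± 0.13 (adjusted p = 0.025 and 0.0241). The Id2 call was lost without FrC of mouse 1, 2 or 3 or FrB of mouse 3, and the Id3 call without FrC of mouse 1 or 3, and Id3 stood at 0.22 when scaled to spike-in totals. Klf2, a quiescence factor, changed by -0.99 ± 0.28 (adjusted p = 0.0488), a call lost in 8 of 10 fits without 1 library (adjusted p up to 0.12). Ikzf3, which encodes Aiolos, changed by -1.03 ± 0.33 and was not called (adjusted p = 0.0817); it was called lower without FrB of mouse 1 or FrC of mouse 7 (adjusted p down to 0.0188).

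Of 21 tested pro-B and progenitor genes, 3 rose and 4 fell, where 1.67% and 4.13% of all genes tested did. The list's median was -0.41. Ly6d, a surface marker of B-committed progenitors that is also high in later B cells, had 434, 413, 503.2, 449 and 489.9 CPM in FrC, against 1628, 1379, 1378, 1705 and 955 CPM in FrB. It fell by 1.62 on the log2 scale (SE 0.15, edgeR adjusted p = 2.10e-05), with every FrC library below every FrB library. Lmo2, a transcriptional cofactor of progenitors, averaged 15.3 ± 6.54 CPM in FrC and 39.4 ± 10.1 CPM in FrB (-1.36 ± 0.32, adjusted p = 0.0185), a call lost without FrC of mouse 1 or 3. Myb, a transcription factor of dividing progenitors, had 357, 419, 351, 336 and 400.2 CPM in FrC, against 179, 229, 266, 196 and 251.9 CPM in FrB, and rose by 0.73 ± 0.14 (adjusted p = 0.0061). Lmo4, a related cofactor gene, rose by 0.84 ± 0.17 (adjusted p = 0.00646). Kit, the stem cell factor receptor, had 3.65, 1.82, 2.03, 16.3 and 0.182 CPM in FrC, against 26.2, 21.4, 6.99, 58.0 and 18.7 CPM in FrB. Kit was lower in FrC in 5 of 5 mice and not called (-2.45 ± 0.85, adjusted p = 0.11). It was called lower with mouse as a block (-3.08, adjusted p = 0.0205) and without FrC of mouse 6, the highest FrC library (adjusted p = 0.0067).

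Cell cycle genes lay mostly above 0, by small amounts, and a minority passed the test, where 1.67% of all genes tested rose. Of 50 tested G1/S and DNA replication genes, 45 had a log2 fold change above 0, 10 rose and none fell, with a median of 0.38. Of 59 tested G2/M and mitosis genes, 57 lay above 0, 10 rose and none fell, with a median of 0.40. Mcm2 and Mcm5, subunits of the replicative helicase, led the first group. Mcm2 had 315, 193, 261, 352 and 252.3 CPM in FrC, against 87.4, 148, 145, 81.3 and 112 CPM in FrB (1.26 ± 0.20, edgeR adjusted p = 0.00137), and Mcm5 had 447, 316, 406, 425 and 415 CPM in FrC, against 249.8, 141, 248, 132 and 202 CPM in FrB (1.05 ± 0.19, adjusted p = 0.00322). Dnmt1, the maintenance DNA methyltransferase, averaged 185 ± 29.0 CPM in FrC and 101 ± 18.6 CPM in FrB, and Fen1, the flap endonuclease, averaged 178 ± 36.9 CPM in FrC and 96.2 ± 20.1 CPM in FrB (adjusted p = 0.00546 and 0.0105). None of these 4 genes overlapped between the fractions. Espl1, which encodes separase, had 51.3, 70.4, 59.5, 50.1 and 68.4 CPM in FrC, against 36.6, 19.3, 27.0, 26.9 and 27.7 CPM in FrB (1.12 ± 0.23, adjusted p = 0.00757), and Nek2, a centrosomal kinase, had 168, 101, 137, 172 and 128 CPM in FrC, against 71.3, 57.9, 61.1, 38.4 and 99.9 CPM in FrB (1.102 ± 0.23, adjusted p = 0.00974). Neither overlapped. With 1 mouse left out, the Fen1 and Nek2 calls were each lost in 2 of 5 fits. Foxm1, the transcription factor of mitotic genes, and Incenp, of the chromosomal passenger complex, changed by 0.90 ± 0.23 and 0.68 ± 0.17 (adjusted p = 0.0279 and 0.0279), calls lost in 6 of 10 and 3 of 10 fits that left out 1 library. Ncapd2, a condensin subunit, averaged 237 ± 73.1 CPM in FrC and 129.6 ± 33.8 CPM in FrB (0.87 ± 0.22, adjusted p = 0.0307), a call lost in 7 of 10 such fits. Mki67, which encodes the proliferation antigen Ki-67, was higher in FrC in 5 of 5 mice without overlap, at 656, 730.2, 627, 709 and 954 CPM in FrC, against 617, 448, 568, 473 and 485 CPM in FrB, and missed the threshold (0.50 ± 0.15, adjusted p = 0.0518) except without FrB of mouse 1 (adjusted p = 0.0497).

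The counts of cell cycle calls varied with the libraries fitted. Against 10 G1/S and 10 G2/M genes called higher, mouse as a block gave 15 and 9, and DESeq2 17 and 17. Leaving out 1 library left 5 to 13 of the G1/S genes and 2 to 8 of the G2/M genes called higher. Mice 1, 2 and 3 alone gave 1 of each, and no gene of either list was called higher when FrD and FrE joined the fit or with spike-in scaling. Without FrB of mouse 6, which held the lowest summed levels of both lists, 7 and 2 were called higher. Summed over the G2/M list, FrC libraries held 19258, 20774, 19720.1, 22864 and 21075 CPM, against 17156, 15729, 18386, 13377 and 18029.5 CPM in FrB. Each mouse had the higher G2/M sum in FrC and the fractions did not overlap. Of 22 tested genes of MYC and D-cyclin entry into the cycle, Ccnd2 and E2f2 rose. Ccnd2, which encodes cyclin D2, had 631, 432, 631, 505.3 and 427 CPM in FrC, against 309, 369, 425, 305 and 274 CPM in FrB (0.64 ± 0.16, edgeR adjusted p = 0.0279), a call lost in 6 of 10 fits without 1 library, and the E2f2 call (adjusted p = 0.0376) was lost in 7 of 10. Ccnd3, whose product cyclin D3 pre-B cells depend on, had 1821, 1479, 2168, 2157 and 1446 CPM in FrC, against 1509, 1057, 1377, 579 and 1282 CPM in FrB, and Myc had 416, 261, 323, 310.4 and 173 CPM in FrC, against 303, 236, 296, 126 and 174 CPM in FrB. Neither Ccnd3 nor Myc was called (0.64 ± 0.21 and 0.39 ± 0.25, adjusted p = 0.0841 and 0.431). The cell cycle inhibitor gene Cdkn1b changed by -0.30 ± 0.19 (adjusted p = 0.418).

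**Figure D3:**
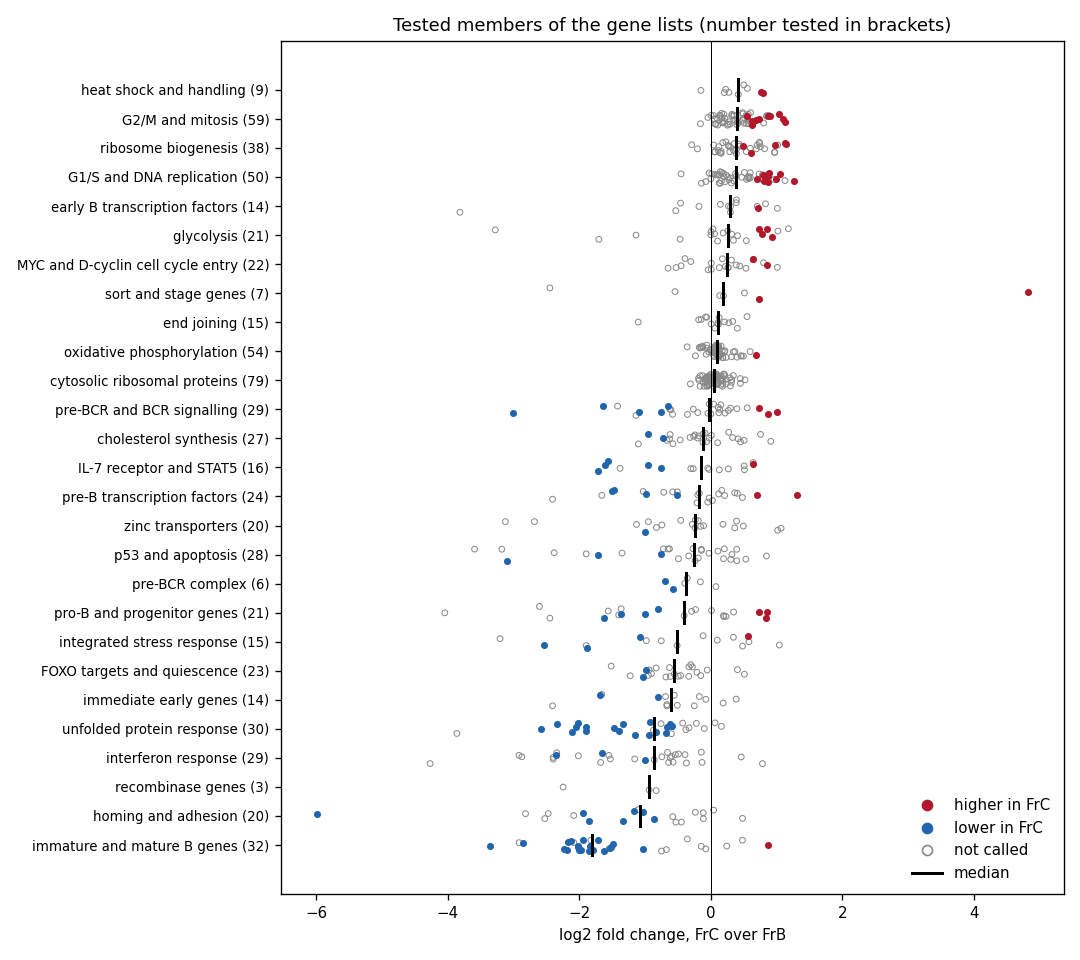
Each point is a tested member of a gene list (rows, number tested in brackets) at its log2 fold change of FrC over FrB (x axis), red if called higher, blue if called lower and open if not called, with a black bar at the list's median. The G1/S, G2/M and ribosome biogenesis lists lie mostly right of 0, with medians of 0.38 to 0.40, while the unfolded protein response and mature B lists lie mostly left, with medians of -0.86 and -1.81.

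Promoters of several cell cycle genes that rose carry letters that are known as sites of cell cycle factors, and 4 are shown for genes of the groups above. The windows hold 250 bases before and 50 after a RefSeq start on GRCm38.p6, are written on the gene's own strand, and cover 8626 of the genes tested. Capitals mark TTCCCGC or TTGGCGC, forms of the E2F site, on either strand in the first pair, and TTTGAA, the CHR element of mitotic genes, in the second.
Mcm5, chr8:75109259-75109558, plus strand: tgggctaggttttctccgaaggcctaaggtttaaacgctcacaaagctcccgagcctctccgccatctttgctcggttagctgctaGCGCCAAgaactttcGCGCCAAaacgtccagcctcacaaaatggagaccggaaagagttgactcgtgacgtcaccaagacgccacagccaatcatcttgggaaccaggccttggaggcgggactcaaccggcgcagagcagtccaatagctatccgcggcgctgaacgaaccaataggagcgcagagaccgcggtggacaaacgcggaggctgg
Dnmt1, chr9:20952574-20952873, minus strand: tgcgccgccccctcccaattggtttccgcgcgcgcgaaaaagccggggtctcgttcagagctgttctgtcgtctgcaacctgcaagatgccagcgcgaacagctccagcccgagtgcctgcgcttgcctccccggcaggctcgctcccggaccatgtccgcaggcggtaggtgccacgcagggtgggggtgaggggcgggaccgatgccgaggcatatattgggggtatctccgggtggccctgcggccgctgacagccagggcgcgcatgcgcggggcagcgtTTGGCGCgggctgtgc
Espl1, chr15:102296043-102296342, plus strand: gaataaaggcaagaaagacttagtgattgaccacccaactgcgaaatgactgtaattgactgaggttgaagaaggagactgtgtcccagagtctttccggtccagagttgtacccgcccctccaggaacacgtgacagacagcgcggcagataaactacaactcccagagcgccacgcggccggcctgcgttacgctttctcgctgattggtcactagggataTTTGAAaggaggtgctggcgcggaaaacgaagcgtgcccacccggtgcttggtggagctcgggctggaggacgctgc
Ncapd2, chr6:125191537-125191836, minus strand: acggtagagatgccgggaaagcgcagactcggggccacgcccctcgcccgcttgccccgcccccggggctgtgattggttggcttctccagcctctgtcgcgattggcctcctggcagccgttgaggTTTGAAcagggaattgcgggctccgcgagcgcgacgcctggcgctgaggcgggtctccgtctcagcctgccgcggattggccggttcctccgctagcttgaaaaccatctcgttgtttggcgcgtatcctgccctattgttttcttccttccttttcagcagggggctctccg
Mcm5 has 2 E2F matches, which begin 164 and 149 bases before its start, on the opposite strand. The Dnmt1 match lies after the start used, 1 of several listed for that gene. Each window shown is the first listed that held the motif, and a gene was counted if any of its windows held it. The CHR matches begin 27 bases before the start of Espl1 and 123 bases before that of Ncapd2. E2F matches stood in the windows of 23 of 41 G1/S genes (56.1%), of 41 of 156 genes called higher (26.3%), of 26 of 340 called lower (7.65%) and of 14.5% of all genes tested. Among the 10 G1/S genes that rose, 8 held one. CHR matches stood in 37 of 50 G2/M genes (74.0%), in 6 of the 8 that rose and have a window, and in 14.7% of all genes tested. The lists were partly built from genes known to be bound by these factors, so the shares describe the lists, and a match is not a shown binding site.

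Genes of growth and metabolism also rose in part, where 1.67% of all genes tested rose and 4.13% fell. Of 38 tested ribosome biogenesis genes 36 lay above 0, 5 rose and none fell, with a median of 0.39. Nolc1, a nucleolar chaperone, had 151, 128, 154, 120.1 and 134 CPM in FrC, against 58.5, 59.5, 74.9, 58.8 and 62.4 CPM in FrB, and rose by 1.13 ± 0.16 (edgeR adjusted p = 4.93e-04). Ddx21, a nucleolar helicase, had 159, 141, 170.0, 106 and 149 CPM in FrC, against 72.8, 64.8, 98.1, 63.0 and 70.5 CPM in FrB, and rose by 0.97 ± 0.18 (adjusted p = 0.00396). Ncl, which encodes nucleolin, averaged 834 ± 91.8 CPM in FrC and 546 ± 51.2 CPM in FrB (0.61 ± 0.13, adjusted p = 0.00838). Nolc1, Ddx21 and Ncl did not overlap between the fractions. The Noc2l call (1.14) was lost without FrC of mouse 3 and the Npm1 call (0.49) in 9 of 10 fits without 1 library, and with mouse as a block Npm1 missed the threshold (adjusted p = 0.0617). By contrast, none of 79 cytosolic ribosomal protein genes was called by edgeR or DESeq2, 4 had an unadjusted edgeR p under 0.05, and their median was 0.05. The lowest p-values among them were those of Rpl3 (0.34 ± 0.13, adjusted p = 0.13) and Rpl15 (0.45 ± 0.17, adjusted p = 0.133). Of 21 tested glycolysis genes 4 rose and none fell. Pkm, the pyruvate kinase, had 423, 302, 589, 411 and 296 CPM in FrC, against 216, 193, 247, 138 and 269 CPM in FrB (0.93 ± 0.21, adjusted p = 0.0152), and Tpi1, the triosephosphate isomerase, had 700.3, 659.9, 827, 705.1 and 576 CPM in FrC, against 412, 293, 534, 304 and 475 CPM in FrB (0.78 ± 0.17, adjusted p = 0.0135). Slc16a1, a lactate transporter, rose by 0.86 ± 0.20 (adjusted p = 0.0165). With 1 mouse left out, its call and that of Pkm were each lost in 3 of 5 fits, and that of Tpi1 in 2 of 5. Ldha, the lactate dehydrogenase subunit, rose by 0.73 ± 0.20 (adjusted p = 0.0394), a call lost in 7 of 10 fits without 1 library. Of 54 oxidative phosphorylation genes, 1 was called, a share near that of all genes tested. It was the ATP synthase gene Atp5a1 (0.69 ± 0.19, adjusted p = 0.0394), and that call was lost in 7 of 10 such fits. Among 9 tested chaperones of heat shock and handling, Hsp90ab1 (0.79 ± 0.16, adjusted p = 0.00666) and Hspd1 (0.76 ± 0.18, adjusted p = 0.0184) rose, the Hspd1 call being lost without FrC of mouse 1 or FrB of mouse 6 or 7. Of 27 cholesterol synthesis genes, Scd1, a fatty acid desaturase counted with them, and Insig1, a sterol sensor, fell, by -0.73 ± 0.17 and -0.95 ± 0.26 (adjusted p = 0.0204 and 0.0434). Scd1 stood at 0.0068 when scaled to spike-in totals and lost its call without FrC of mouse 1, and the Insig1 call was lost in 9 of 10 fits without 1 library and with mouse as a block (adjusted p = 0.0829).

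Genes of the unfolded protein response, the programme by which cells expand folding capacity in the endoplasmic reticulum, mostly had lower RNA levels in FrC. The activity of the programme was not measured. Of 30 tested genes 28 lay below 0, 18 fell and none rose, with a median of -0.86, where 4.13% of all genes tested fell. Edem1, of the pathway that degrades misfolded glycoproteins, had 83.4, 61.5, 60.4, 124 and 95.7 CPM in FrC, against 277, 772, 337, 454 and 313 CPM in FrB (-2.34 ± 0.28, edgeR adjusted p = 1.62e-04). Dnajb9 and Dnajc3, co-chaperones of the endoplasmic reticulum, fell by 2.12 and 1.48 on the log2 scale (adjusted p = 2.44e-04 and 3.88e-04), and Dnajc3 had 126, 90.5, 96.5, 127 and 107 CPM in FrC, against 179.9, 409, 286, 366 and 281 CPM in FrB. Creld2, a secreted stress-induced protein of that compartment, had 90.4, 135, 104, 178 and 88.4 CPM in FrC, against 257, 863, 465, 479 and 400.4 CPM in FrB (-2.05 ± 0.28, adjusted p = 4.93e-04). None of these 4 genes overlapped between the fractions. Xbp1, the transcription factor of the response and of plasma cells, had 191, 179, 143, 576 and 165 CPM in FrC, against 1144, 2168, 1264, 2086 and 893 CPM in FrB. It changed by -2.59 ± 0.44 (adjusted p = 0.00772), with FrC of mouse 6 far above the other FrC libraries and still below every FrB library. Hspa5, the main chaperone BiP, had 547, 365, 449, 644 and 267 CPM in FrC, against 641, 1207, 697, 668 and 857 CPM in FrB, and its call (-0.84 ± 0.23, adjusted p = 0.0369) was lost in 6 of 10 fits without 1 library and with mouse as a block (adjusted p = 0.0677). Leaving out 1 library left 13 to 17 of the genes called lower, and leaving out 1 mouse left 12 to 17, of which mouse 6 left 17. With FrD and FrE in the fit 3 were called lower, without the 2 low-complexity libraries 10, and with spike-in scaling 2.

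Markers of plasma cells moved with this list and share Xbp1, Txndc5 and Derl3 with it. Of 10 tested plasma cell markers 3 fell and Irf4 rose, with a median of -2.30. With mouse as a block 5 were called lower, and without FrC of mouse 6 or without mouse 6 it was 6, while the Irf4 call was lost in 7 of 10 fits without 1 library. Summed over the list, FrC libraries held 1760.5, 1933, 1765, 11623 and 3661 CPM, against 20830.2, 41236, 31879.6, 60882 and 18974 CPM in FrB. Jchain, the joining chain of secreted antibody, made up most of the sum in the FrB libraries and in FrC of mouse 6, and little of it in FrC of mice 1, 2 and 3, with 8.04, 15.4, 4.76, 8676 and 1695 CPM in FrC, against 17058, 33828, 26881, 53464 and 14504 CPM in FrB. All FrC libraries lay below all FrB libraries for Jchain, mice 6 and 7 had far more than the rest in FrC, and the gene was not called (-3.81 ± 1.998, edgeR adjusted p = 0.347). The part of such cells in the fall of the unfolded protein response genes was not tested. Of 15 tested genes of the integrated stress response, which runs through ATF4, 3 fell and 1 rose, where 4.13% and 1.67% of all genes did. Slc3a2, the heavy chain of amino acid exchangers, had 243, 249, 240.1, 323 and 216 CPM in FrC, against 396, 630.0, 547, 527 and 577 CPM in FrB (-1.07 ± 0.15, adjusted p = 5.99e-04), and Asns, the asparagine synthetase, had 19.8, 18.1, 7.29, 9.34 and 2.24 CPM in FrC, against 59.7, 105, 58.3, 76.9 and 30.9 CPM in FrB (-2.54 ± 0.47, adjusted p = 0.004). Neither overlapped. Pycr1, of proline synthesis, fell by 1.88 on the log2 scale and Psat1, of serine synthesis, rose by 0.56, and these calls were lost in 5 of 10 and 7 of 10 fits without 1 library.

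Promoter windows of unfolded protein response genes are shown for Dnajc3 and Creld2, with both motifs of the ER stress response element in capitals. That element was searched as CCAAT and CCACG with 9 bases between, on both strands, a search added after seeing the data.
Dnajc3, chr14:118937682-118937981, plus strand: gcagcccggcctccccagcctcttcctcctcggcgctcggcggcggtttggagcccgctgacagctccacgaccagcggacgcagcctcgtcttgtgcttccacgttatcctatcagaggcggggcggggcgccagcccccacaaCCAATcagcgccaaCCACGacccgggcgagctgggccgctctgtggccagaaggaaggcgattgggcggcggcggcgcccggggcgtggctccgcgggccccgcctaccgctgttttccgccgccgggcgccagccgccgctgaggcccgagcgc
Creld2, chr15:88819396-88819695, plus strand: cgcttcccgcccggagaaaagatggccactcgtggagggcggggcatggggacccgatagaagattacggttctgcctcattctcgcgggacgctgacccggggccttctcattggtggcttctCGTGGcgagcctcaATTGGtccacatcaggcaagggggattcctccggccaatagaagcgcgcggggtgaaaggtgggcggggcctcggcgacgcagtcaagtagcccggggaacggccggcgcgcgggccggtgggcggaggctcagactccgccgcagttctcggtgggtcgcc
The element begins 105 bases before the start of Dnajc3 and, on the opposite strand, 126 bases before that of Creld2. With windows chosen and counted as for the cell cycle genes, it stood in 9 of 25 unfolded protein response genes with a window (36%). Among all genes tested with a window it stood in 13 of 8626 (0.151%). Of the 18 genes of the list that fell 15 have a window, and 4 of these hold the element. The list was built from genes known for this response, and a match is not a shown binding site.

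In FrC, most genes of the immature and mature B list stood below their FrB levels. Of 32 tested genes 29 lay below 0, 20 fell and Cd22 rose, with a median of -1.81, where 4.13% of all genes tested fell. Cd74, which encodes the chain that accompanies MHC class II to the endosome, had 926, 1007, 968, 1607 and 1009 CPM in FrC, against 4410.0, 6251, 3128, 5894 and 5180.0 CPM in FrB, and was 4.51-fold lower (-2.17 ± 0.20, edgeR adjusted p = 1.94e-05). H2-DMb2, of the machinery that loads peptides on class II, had 47.2, 44.2, 53.3, 67.3 and 93.6 CPM in FrC, against 354, 305, 173, 316 and 296 CPM in FrB (-2.24 ± 0.23, adjusted p = 5.67e-05). For both, every FrC library lay below every FrB library, as for Fcmr and Ly6d, the other leading genes of the list. Leaving out 1 library left 20 or 21 of the genes called lower, leaving out 1 mouse 19 to 21, and the fit with FrD and FrE but without the 2 low-complexity libraries 19. With those 2 libraries kept 5 were called lower, and with spike-in scaling 2. Summed over the list, FrC libraries held 5585, 5169, 5780.4, 7826 and 6928 CPM, against 17266, 19679, 14050.4, 22035 and 18639.5 CPM in FrB.

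Homing and adhesion genes followed the same direction, with 7 of 20 tested lower and none higher, where 4.13% of all genes tested fell. Itgal, the αL integrin chain of LFA-1, had 19.7, 19.2, 19.1, 30.6 and 21.4 CPM in FrC, against 53.6, 124, 90.8, 81.2 and 48.7 CPM in FrB (-1.85 ± 0.27, edgeR adjusted p = 6.64e-04). S1pr1, the egress receptor for sphingosine 1-phosphate, had 13.1, 22.2, 7.005, 39.9 and 34.6 CPM in FrC, against 77.6, 54.7, 77.4, 112 and 126 CPM in FrB (-1.94 ± 0.39, adjusted p = 0.00686). Neither overlapped between the fractions. Ccr9, a chemokine receptor also found on plasmacytoid dendritic cells, had 0.114, 0.0652, 1.54, 0.130 and 0 CPM in FrC, against 31.1, 25.2, 21.2, 32.7 and 7.75 CPM in FrB (adjusted p = 0.00111). Of 23 tested FOXO targets and quiescence genes 21 lay below 0 and 2 fell, Klf2 among them, with a median of -0.56. Among 14 tested immediate early genes Cd69 fell (-1.69 ± 0.32, adjusted p = 0.00433), as did Ier2 (-0.81 ± 0.21, adjusted p = 0.0318), whose call was lost in 6 of 10 fits without 1 library and with mouse as a block (adjusted p = 0.0562). Of 29 tested interferon response genes 27 lay below 0 and 3 fell, with a median of -0.86. The count called lower was 5 with mouse as a block, 8 with DESeq2, 6 without FrC of mouse 6, 5 without FrC of mouse 7, and 1 without FrC of mouse 1, FrC of mouse 3 or FrB of mouse 6. Bst2, which encodes tetherin, had 55.7, 40.9, 49.6, 51.3 and 42.9 CPM in FrC, against 129, 82.1, 81.3, 97.5 and 91.0 CPM in FrB (-0.999 ± 0.19, adjusted p = 0.00436). Rtp4 and Zbp1, an interferon-induced chaperone and a nucleic acid sensor, changed by -1.65 ± 0.39 and -2.36 ± 0.56 (adjusted p = 0.0185 and 0.0204), and both calls were lost without FrC of mouse 1, FrC of mouse 3 or FrB of mouse 6 (adjusted p up to 0.0761).

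Summed markers of several other cell types were lower in FrC than in FrB, by amounts that differed by mouse. Of 10 tested markers of plasmacytoid dendritic cells 7 fell in FrC, with a median of -4.25, and their summed level was 562, 453, 601, 746 and 757 CPM in FrC, against 1862, 2180.0, 933, 1689 and 1321 CPM in FrB. Siglech, the surface lectin that defines these cells, had 12.8, 0.196, 0, 0.259 and 3.39 CPM in FrC, against 334, 123, 68.9, 219 and 119 CPM in FrB, and Klk1, a tissue kallikrein kept in that list, had 0.0570, 0.0652, 0, 0.195 and 0 CPM in FrC, against 134, 27.2, 25.7, 12.2 and 11.1 CPM in FrB (edgeR adjusted p = 0.0418 and 7.24e-05). The fractions did not overlap, and the Siglech call was lost in 9 of 10 fits without 1 library. Markers of granulocytes and monocytes summed to 331, 78.9, 115, 584 and 1001 CPM in FrC, against 8746, 1723, 292, 14099 and 3257 CPM in FrB. Ngp, a granule protein of neutrophils, had 15.4, 4.37, 2.17, 4.93 and 3.21 CPM in FrC, against 2397, 4.72, 3.97, 2328 and 311 CPM in FrB, so that FrB of mice 1, 6 and 7 stood apart from FrB of mice 2 and 3, and it was called lower only without FrB of mouse 3 (adjusted p = 0.0445). Of 13 tested markers of this list only Tyrobp was called (-2.58, adjusted p = 0.0244), a gene named after its value was seen, and its call was lost without FrC of mouse 1 or 3 or FrB of mouse 6 (adjusted p up to 0.07). All 13 lay below 0, and the count called lower was 5 with mouse as a block, 9 with DESeq2, 5 without FrB of mouse 3, 3 without FrC of mouse 7 and 2 without FrC of mouse 2. Erythroid markers summed to 1950.1, 1490.2, 3613, 1101 and 6585 CPM in FrC, against 18746, 7666, 17118, 26742 and 2259 CPM in FrB, higher in FrC in mouse 7 and lower in FrC in the other 4 mice. The β-globin gene Hbb-bs had 843, 446, 1657, 588 and 3224 CPM in FrC, against 9625, 3722, 8248, 13178 and 1099.7 CPM in FrB, and of 12 tested erythroid markers only Klf1 was called (-2.99, adjusted p = 0.0465), also named after its value was seen. The Klf1 call was lost in 9 of 10 fits without 1 library and with mouse as a block (adjusted p = 0.178). All 12 lay below 0, and the count called lower was 5 with DESeq2, 5 without FrB of mouse 7, 6 without mouse 7, 4 in mice 1, 2 and 3 alone and 2 without FrC of mouse 2. Markers of NK and innate lymphoid cells summed to 4.08 to 69.0 CPM in FrC and 18.3 to 339 CPM in FrB, those of basophils, mast cells and eosinophils to 2.24 to 116 CPM in FrC and 79.5 to 685 CPM in FrB, and those of T cells to 125 to 219 CPM in FrC and 151 to 230.3 CPM in FrB, with no gene called by edgeR in these 3 lists. Of the tested markers, 7 of 8 of T cells, 4 of 4 of NK and innate lymphoid cells and 2 of 3 of the basophil, mast cell and eosinophil list lay below 0. Their medians were -1.89, -2.02 and -2.88. At an unadjusted p under 0.05 there were 4 T cell markers, 3 of them lower, 1 NK marker and 0 of the basophil, mast cell and eosinophil list, and DESeq2 called 3 T cell markers lower and 0 of the others. With mouse as a block 2 T cell markers were called lower, as were 2 without FrC of mouse 1, 2, 3 or 6 and 1 without FrB of mouse 2 or FrC of mouse 7, and 2 NK markers were without FrB of mouse 7. Markers of megakaryocytes summed to 0 to 5.93 CPM in FrC and 0.0805 to 11.9 CPM in FrB, and those of stromal cells to 4.08 to 11.6 CPM in FrC and 0 to 23.3 CPM in FrB. Among defining markers, Gzmb and Tbx21 of NK cells, Cd8b1 of T cells and Ms4a2 and Epx of mast cells and eosinophils had no count in FrC, and Ms4a2 and Epx had none in FrB either. The part of these cells in the genes that fell was not tested.

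**Figure D4:**
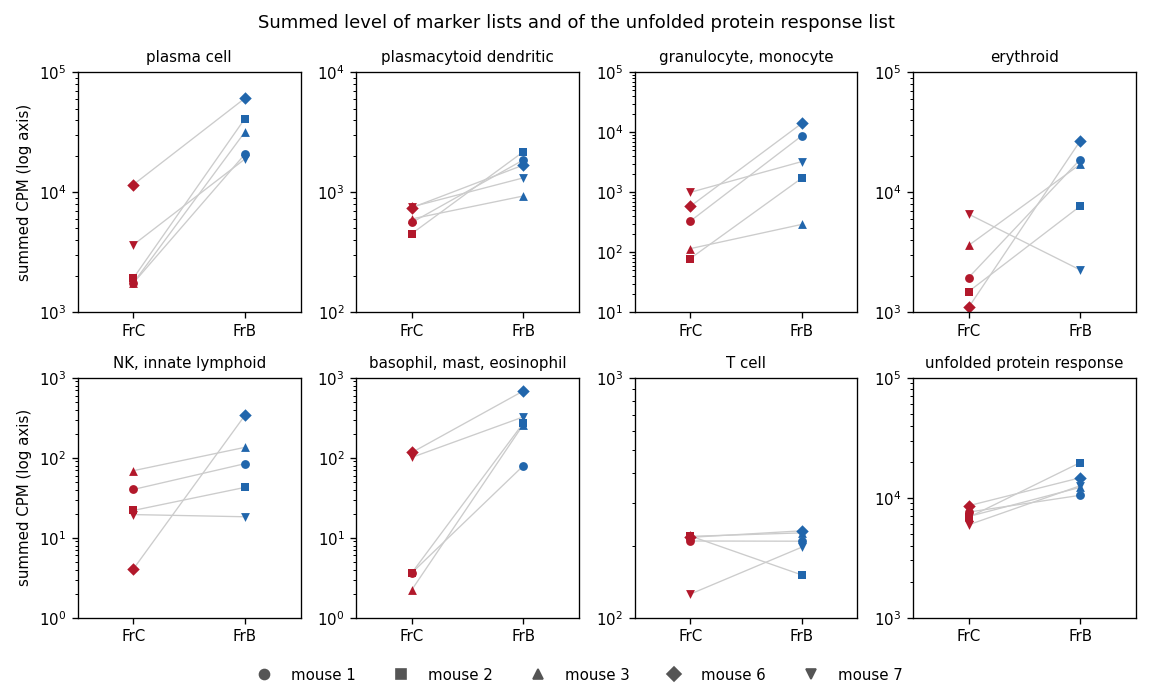
Summed CPM (y axis, log scale) of 7 marker lists of other cell types and of the unfolded protein response list is shown for the FrC (left, red) and FrB (right, blue) library of each of 5 mice, with 1 symbol per mouse and grey lines joining its libraries. Plasma cell, plasmacytoid dendritic and unfolded protein response sums are lower in every FrC library than in any FrB library, the erythroid sum of mouse 7 is higher in its FrC library, and T cell sums overlap.

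Of 20 tested zinc transporter genes, the subject of the series, 1 was called, a share near the 5.81% of all genes tested, and 2 were with mouse as a block. Slc30a7, which encodes ZnT7, a zinc exporter of the Golgi membrane, had 45.2, 40.2, 33.8, 30.4 and 29.2 CPM in FrC, against 56.2, 96.7, 73.0, 73.5 and 60.0 CPM in FrB, and fell by 1.01 on the log2 scale (SE 0.22, edgeR adjusted p = 0.0114) with no overlap. The Slc30a7 call was lost in 2 of 5 fits that left out 1 mouse. Slc39a7, which encodes ZIP7, the zinc transporter of the endoplasmic reticulum, had 22, 16.9, 35.7, 63.4 and 53.9 CPM in FrC, against 27.9, 48.8, 54.5, 50.01 and 44.7 CPM in FrB. Its ranges overlapped and it was not called (-0.24 ± 0.33, adjusted p = 0.787).

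Set beside the later fractions of the same WT mice, FrC held the lowest or highest median for many of these genes. Medians in FrB, FrC, FrD and FrE, scaled over the 20 WT libraries, were 755, 98.5, 217 and 1959 CPM for Fcmr, 4831, 926, 1423 and 13669 CPM for Cd74 and 1304, 424, 3489 and 7909 CPM for Ly6d. All 3 were thus lowest in FrC and highest in FrE. Tigit had medians of 22.7, 0, 0 and 8.44 CPM and Xbp1 of 1196, 169, 272 and 641 CPM in the same order. Enpep had medians of 1.78, 79.2, 20.2 and 0.441 CPM, Ubash3a of 34.4, 92.4, 2.11 and 6.70 CPM and Mcm2 of 104, 247, 73.1 and 101 CPM, each highest in FrC. Bach2, at 160.0, 316, 598 and 189 CPM, was highest in FrD. The surrogate light chain gene Vpreb1, at 1432, 919, 55.7 and 12.6 CPM, and Dntt, at 1057, 112, 14.5 and 1.103 CPM, were highest in FrB, while Rag2, at 172, 91.6, 317 and 3.53 CPM, was lower in FrC than in the FrB and FrD on either side. The orders are descriptions of medians, were not tested across the 4 fractions, and include 1 low-complexity library each of FrD and FrE.

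**Figure D5:**
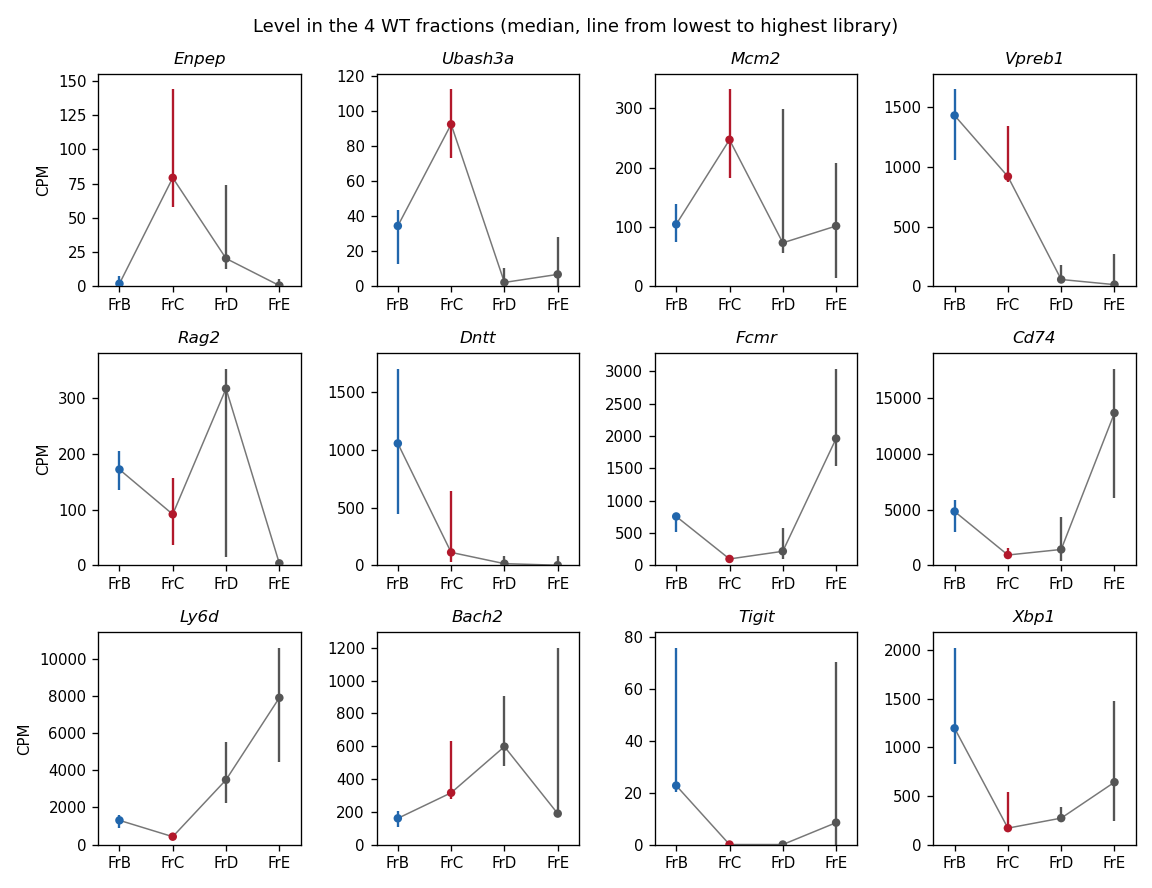
The median level in CPM (y axis, from 0) of 12 genes is shown in the 4 WT fractions in order of development, with vertical lines from the lowest to the highest of 5 libraries. Enpep, Ubash3a and Mcm2 have their highest median in FrC, and Fcmr, Cd74, Ly6d and Xbp1 their lowest.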

How the data were processed

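The authors deposited 1 table of unnormalised read counts by gene. HISAT2 2.1.0, featureCounts 1.4.6 of Subread, DESeq2 and build mm10 are named, per the submitters' processing notes, without their roles. No source used here gives the annotation or strandedness of the counting, and reads of antisense or overlapping genes can therefore not be separated. Libraries were made with Smart-seq2 and ERCC spike-ins, per the labels' protocols, without molecular identifiers, so bounds cover counting error only. The table has 21958 genes and 92 spike-ins, and 21728 genes were matched to GENCODE M21 for names and coordinates, counted from 1.

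Endogenous counts of the 10 libraries (12514009 to 16892841 each) were tested with the quasi-likelihood method in edgeR 4.0.16 (R 4.3.3) with TMM factors, a robust fit, filterByExpr at a count of 10 and total of 15, two-sided, and p-values were adjusted over all genes tested. Tests were checked on simulated counts, where edgeR left many of the changed genes uncalled. A gene not called is therefore not shown to be unchanged. Errors after ± are SD for levels and SE for fold changes. The fit had no block. The numbers pair the libraries because each mouse gave both fractions, although same-mouse libraries deviated together by a correlation of only -0.005 to 0.101. No pair of libraries was identical (correlations 0.816 to 0.947).

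Named genes are the 12 of lowest p in each direction with at least 10 CPM in the higher fraction and a count in its 5 libraries, up to 4 called members of each list (2 where none was called), and a fixed set of stage genes. The members and lists were chosen with earlier results of these data known. Some genes that these rules name are not reported here. Promoter windows are RefSeq's. Alternatives were the mouse block, all 20 WT libraries, RLE factors, ERCC scaling, DESeq2 1.42.0, limma voom 3.58.1, other count filters, mouse subsets and each library or mouse left out.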

Additional observations from a re-analysis of the deposited data

Results flagged for a closer look

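Values of single libraries stood apart from the other 4 of their fraction in 27 of 258 groups of 5 examined. The gap was over 0.71 of the range, a cutoff that about 1 in 20 groups of independent normal values pass. CPM of genes from shared libraries are neither, so the count cannot be set against chance. In FrC of mouse 6 the high values were those of Kit (16.3 CPM), Cd74 (1607 CPM), Nfatc1 (49.9 CPM), Blnk (1029.8 CPM), Xbp1 (576 CPM), Itgal (30.6 CPM), Rtp4 (33.9 CPM), Fas (8.43 CPM) and Jchain (8676 CPM). All 9 genes had a lower mean level in FrC than in FrB, so a high FrC value of these genes lies toward FrB by definition. The position of the library as a whole does not follow from them. In FrC of mouse 7 the high values were those of Bach2 (686 CPM), E2f2 (318 CPM), Klf2 (57.4 CPM), Ikzf3 (89.1 CPM) and Chst11 (0.121 CPM, against no count in the other 4). In FrC of mouse 3 it was that of Ccr9 (1.54 CPM), in FrC of mouse 2 that of Rpl3 (294 CPM, lower than the others), and in FrC of mouse 1 those of Siglech (12.8 CPM) and Ngp (15.4 CPM).

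In FrB of mouse 6, Ptprc (525 CPM) and Zbp1 (113 CPM) stood above the other FrB libraries and Fcmr (554 CPM) below them, and the 50 highest genes took 21.3% of its counts. In FrB of mouse 3, Nolc1 (74.9 CPM), Nrgn (14.9 CPM) and Ddx21 (98.1 CPM) were high. Tigit was high in FrB of mouse 2 (81.3 CPM) and Klk1 in FrB of mouse 1 (134 CPM).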

How the results depend on the processing

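Against 182 genes called higher and 449 lower, the replicate block gave 213 and 482 and kept 539 of the 631 calls. Of the genes named, it changed no call but those the text gives. The 20 WT libraries gave 0 and 19, or 0 and 16 with the replicate block, and without the 2 low-complexity libraries 13 and 161. ERCC scaling gave 40 and 98, DESeq2 360 and 756, mice 1, 2 and 3 alone 68 higher, mice 6 and 7 alone 1 and 13, mice 1, 3 and 7 alone 41 and 227, and mice 2 and 6 alone 6 and 75. Among the named genes, DESeq2 called 11 that the main fit did not, and lost no call. With 1 mouse left out, the Cd79a, Il2rg and Ncl calls were each lost in 1 of 5 fits. Leaving out libraries or mice gave 53 to 197 higher and 247 to 536 lower. The higher count fell by over 1.5 times without FrB of mouse 1 (116), FrC of mouse 1 (97), FrB of mouse 2 (101), FrC of mouse 3 (88) or FrB of mouse 6 (94), and both counts fell without mouse 1 (53 and 247), 2 (85 and 270) or 3 (90 and 286), and the higher count without mouse 6 (102) or 7 (105). All 631 called genes kept their direction under each of these but ERCC scaling (575 of 631), where Cd79b stood at 0.050, Cd79a at 0.20, Cd81 at 0.077, Id3 at 0.22 and Scd1 at 0.0068. Relative to all genes, list medians crossed 0 for end joining (-0.0066, mice 1, 3 and 7), the IL-7 receptor (0.0076, mice 6 and 7) and pre-B transcription factors (0.0149 in mice 6 and 7, and -0.37 to 0.011 with libraries or mice left out). Without FrC of mouse 6, FOXO targets called lower were 4, against 2 with all libraries (1 to 4 over the libraries left out), and chaperones called higher 4, against 2. Without FrC of mouse 1 or 3, pre-B transcription factors called lower were 1, and without FrC of mouse 2 or FrB of mouse 3 they were 2, against 4. The integrated stress response had 2 genes called higher with the replicate block, against 1. Unpaired, the differences of -262.4 detected genes and -3.82 percentage points passed exact permutation tests (p = 0.0159 and 0.00794), and that of the spike-in ratio did not (p = 0.278). The causes were not tested.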

Other observations

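Genes of low level that changed by more than 8-fold, chosen after their values were seen, stand outside the groups above. Besides Enpep, the genes that rose by that much include the predicted gene 1110032F04Rik, with 1.083, 3.39, 3.57, 2.53 and 3.45 CPM in FrC, against no count in any FrB library. Over the 20 WT libraries it did not exceed 0.049 CPM in any FrD or FrE library. Besides Tigit, 2 called genes had no count in FrC. Timd2, which like Havcr1 belongs to the TIM receptor family, had 24.1, 19.7, 6.02, 6.04 and 2.38 CPM in FrB and was at least 279-fold lower in FrC, and Crb3, a polarity gene, had 0.977, 6.38, 2.50, 5.31 and 4.15 CPM in FrB and was at least 97.7-fold lower (floor of 3 counts over the group). The edgeR adjusted p-values were 0.0158 for 1110032F04Rik, 7.62e-04 for Timd2 and 0.00969 for Crb3. With mouse as a block that of 1110032F04Rik was 0.0866 and that of Crb3 was 0.0632, so neither was called.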
